A study of Homo sapiens with 8 samples.

Results

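SNORD113, SNORD114, SNORD115 and SNORD116 are families of box C/D small nucleolar RNAs (snoRNAs) whose copies lie in tandem in imprinted regions. Their rows were taken from the deposited array table as every transcript cluster, a set of probes read as 1 value, to which the platform annotation gives exactly 1 symbol and that symbol is a copy of SNORD113 to SNORD116. The rule uses no measured value. It found 63 of 135750 transcript clusters: 9 of SNORD113, 30 of SNORD114, 22 of SNORD115 and 2 of SNORD116.

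The samples were 8 total RNA preparations from LN229 cells, a human glioblastoma line, grown on a Transwell membrane. In 4 samples titled 23 Pa CSS, compressive solid stress (CSS) of 23 Pa was applied for 18 h by stainless steel discs resting on an agar cushion. The other 4 samples were titled no CSS, and control wells had neither discs nor cushion, so weight and cushion cannot be told apart. In every sample the source name and the description state the opposite of the title. Groups follow the titles here, a positive difference means a higher mean under the title 23 Pa CSS, and every sign turns if the other labels are right. The labels do not say whether replicates came from separate cultures, and the p-values may therefore reflect technical spread alone.

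A box C/D snoRNA joins fibrillarin, NOP56, NOP58 and SNU13 in a particle that methylates the ribose of other RNAs, and it finds its target by base pairing next to its D box. Most are cut from introns of a host transcript. SNORD113 and SNORD114 lie on chromosome 14 in the imprinted region between DLK1 and DIO3, in a non-coding transcription unit downstream of MEG3 that is expressed from the maternal chromosome. SNORD115 and SNORD116 lie on chromosome 15 in the Prader-Willi region, in introns of the long transcript SNHG14 that starts near SNURF and SNRPN and is expressed from the paternal chromosome. SNORD115 is known chiefly from brain and can pair with the pre-mRNA of the serotonin receptor gene HTR2C. Small deletions that take in SNORD116 are known from people with features of Prader-Willi syndrome. The labelling of total RNA on this array does not separate a mature snoRNA from the precursor transcript that contains it.

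The annotation does not cover the 4 families evenly. In the RefSeq gene table, SNORD113 had 9 copies and each had a row of its own. SNORD114 had 31 copies, of which 30 had a row of their own and 1 stood only on a row shared with other symbols. SNORD115 had 48 copies, of which 22 had a row of their own and 26 stood only on shared rows. SNORD116 had 30 copies, and SNORD116-1 and SNORD116-2 alone were named. For the other 28 no row carried the symbol, and they were not analysed here. Copies of a family resemble one another in sequence, and the values of neighbouring copies are therefore not independent. Fewer cells with an RNA and less of it in each cell cannot be told apart in these bulk samples.

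The imprinted transcripts that carry these snoRNAs start at promoters whose CG dinucleotides are methylated differently on the parental chromosomes. The windows below run from 250 bases before to 50 bases after the RefSeq start (build GRCh38.p14, plus strand), and capitals mark CG. They are shown because both start a transcription unit that the snoRNA copies follow, and the array holds a row for each. SNURF and SNRPN share the window at chr15:24954737-24955036, and the MEG3 window, the first of 3 listed starts, is chr14:100825858-100826157.
SNURF: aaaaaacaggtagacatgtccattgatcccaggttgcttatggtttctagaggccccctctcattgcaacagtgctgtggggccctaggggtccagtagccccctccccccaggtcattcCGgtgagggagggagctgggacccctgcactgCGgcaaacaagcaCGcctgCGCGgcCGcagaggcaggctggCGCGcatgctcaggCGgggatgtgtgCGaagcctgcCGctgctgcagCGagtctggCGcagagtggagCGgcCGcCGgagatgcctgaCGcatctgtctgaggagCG
MEG3: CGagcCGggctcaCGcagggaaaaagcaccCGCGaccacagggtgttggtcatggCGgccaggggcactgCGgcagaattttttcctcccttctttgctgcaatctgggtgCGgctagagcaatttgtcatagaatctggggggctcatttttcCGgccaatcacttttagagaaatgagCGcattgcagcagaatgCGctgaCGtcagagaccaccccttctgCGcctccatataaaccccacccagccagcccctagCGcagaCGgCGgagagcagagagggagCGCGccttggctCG
The SNURF window held 18 CG with 64.3% G and C, and 44.5% of 35116 RefSeq promoter windows of the same length held at least as many CG. The MEG3 window held 19 CG with 59.0% G and C, and 42.9% of the windows held at least as many. The letters TATAAA, searched on both strands, were found in the MEG3 window and not in the SNURF window, and in 11.5% of all windows. Methylation was not measured on this array.

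Signal without a target was read from 23 antigenomic rows, whose probes of 25 bases match no human sequence and are grouped by their number of G and C bases, from 3 to 25. Probes with few G and C bases were the brightest of them: the 3 rows with 3 to 5 G and C bases lay above 7 on the log2 scale and set the upper end of the background. A row was counted above background in a group if it exceeded the 95th percentile of the antigenomic rows of the same sample in all 4 samples. That percentile was 8.48, 8.10, 8.42 and 8.52 in the samples titled 23 Pa CSS, against 8.13, 8.61, 8.58 and 7.78 in those titled no CSS. It was exceeded in all 8 samples by 8.81% of all transcript clusters. The mean antigenomic signal was 4.18 ± 0.053 in the samples titled 23 Pa CSS and 4.03 ± 0.13 in those titled no CSS (SD, n = 4 each), a difference of 0.144 (exact permutation test, two-sided, p = 0.0286, the smallest that 4 against 4 samples allow). The 4 hybridisation control rows differed likewise, by 0.311 (exact permutation test, two-sided, p = 0.0286). Centring each array on its antigenomic mean therefore lowers every difference by 0.144, and centring on the hybridisation controls, an alternative chosen after seeing the data, lowers it by 0.311. The median difference of all transcript clusters was 0.03 as deposited, -0.12 with the first centring and -0.28 with the second. The antigenomic difference itself was uneven, at 0.64 in the row with 3 G and C bases, 0.30 with 9, 0.05 with 15 and -0.05 with 25. Centring takes the same value off every row.

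SNORD116 was the only family with a row above background. SNORD116-2 exceeded the antigenomic 95th percentile in all 4 samples of each group, and it also lay above the brightest antigenomic row in every sample. SNORD116-1 exceeded the 95th percentile in replicates 2 and 4 titled 23 Pa CSS and in none of the other 6 samples. None of the 9 SNORD113, 30 SNORD114 and 22 SNORD115 rows exceeded it in any sample. Of 130 rows of other SNORD genes, by comparison, 37 (28.5%) exceeded it in all 8 samples.

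**Figure D1:**
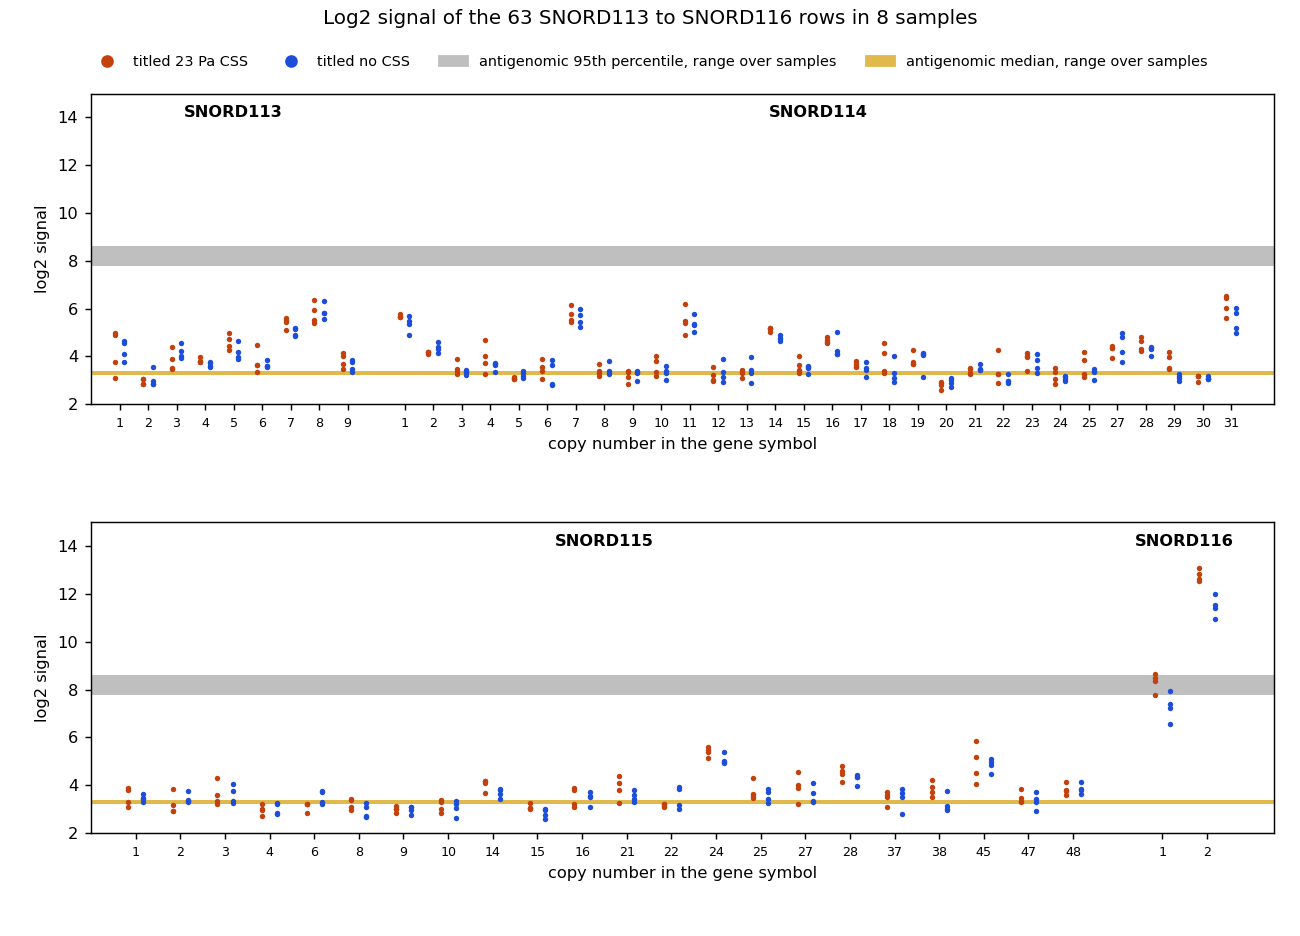
Log2 signal (vertical axis) of each SNORD113 to SNORD116 row (horizontal axis, copy number in the symbol) in 8 samples, with orange points for samples titled 23 Pa CSS left of blue points for samples titled no CSS. The bands span the antigenomic 95th percentile and median over the 8 samples. Only SNORD116-2 lies wholly above the upper band, SNORD116-1 lies around it, and the other 61 rows lie below it.

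SNORD113, SNORD114 and SNORD115 are called the dim families below. The median of the 23 antigenomic rows was exceeded in all 8 samples by 7 of 9 SNORD113 rows, 9 of 30 SNORD114 rows, 6 of 22 SNORD115 rows and both SNORD116 rows. That makes 24 of 63 members (38.1%), against 75.7% of all transcript clusters. Read row by row along the antigenomic ladder, the row with 8 G and C bases was exceeded in all 8 samples by 5 members, SNORD113-8, SNORD114-1, SNORD114-7, SNORD116-1 and SNORD116-2, named here after their values were seen. The row with 13 was exceeded by 53 members and the row with 15 by all 63. The probes of each member were not matched to antigenomic rows of their own base composition, since probe sequences were not used here, so no member is called absent.

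**Figure D2:**
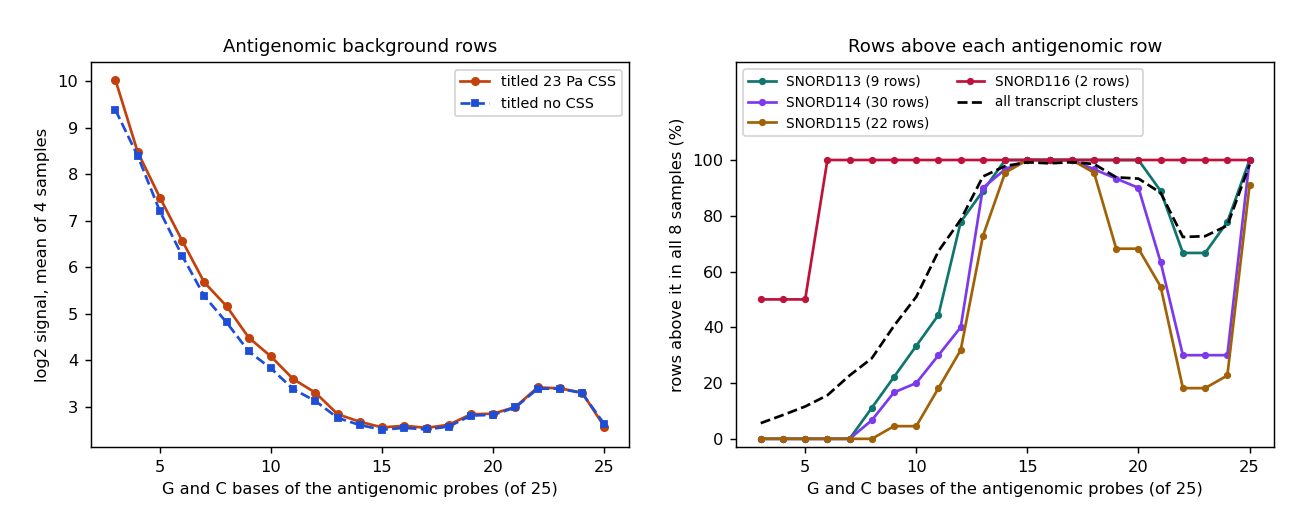
Left, mean log2 signal of the 23 antigenomic rows against the number of G and C bases in their 25-base probes, in samples titled 23 Pa CSS (orange) and titled no CSS (blue, dashed). Right, the percentage of rows of each SNORD family and of all transcript clusters (black, dashed) that exceed each antigenomic row in all 8 samples. Both SNORD116 rows exceed it from 6 G and C bases on, and the SNORD115 line lies lowest over most of the range.

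The SNORD116 rows had the 2 largest differences of the 63 members. SNORD116-2 had a log2 signal of 12.84, 12.63, 12.55 and 13.08 in the samples titled 23 Pa CSS, against 11.99, 11.41, 11.53 and 10.95 in those titled no CSS. The groups did not overlap, and the lowest sample titled 23 Pa CSS lay above the highest titled no CSS. The means were 12.78 ± 0.23 in the samples titled 23 Pa CSS and 11.47 ± 0.43 in those titled no CSS (SD, n = 4 each). The difference was 1.31 on the log2 scale (SE 0.23, 95% interval 0.81 to 1.81), a 2.47-fold higher signal in samples titled 23 Pa CSS, and passed limma's test with a Benjamini-Hochberg adjusted p of 0.0207 over all transcript clusters. In the same test 2.01% of all transcript clusters were called in either direction and 0.581% were called higher, and SNORD116-2 was the only member called of 63. Groups did not overlap in 9.91% of all transcript clusters.

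SNORD116-2 cleared the brightest antigenomic row of its own sample by 2.55, 2.86, 2.56 and 3.03 in the samples titled 23 Pa CSS, against 2.42, 1.39, 2.06 and 2.47 in those titled no CSS. It lay 8.67, 8.47, 8.43 and 8.83 above the antigenomic mean in the samples titled 23 Pa CSS, against 7.95, 7.30, 7.41 and 7.10 in those titled no CSS. Measured against that mean the groups did not overlap either, and against the brightest row the lowest value titled 23 Pa CSS, 2.55, lay next to the highest titled no CSS, 2.47. With each array centred on its antigenomic mean the difference was 1.16 (limma adjusted p = 0.0173). Centred on the 4 hybridisation control rows it was 0.996 (limma adjusted p = 0.0145).

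SNORD116-1 had a log2 signal of 8.48, 8.36, 7.77 and 8.66 in the samples titled 23 Pa CSS, against 7.95, 7.38, 7.25 and 6.55 in those titled no CSS. The groups overlapped, since replicate 3 titled 23 Pa CSS lay below replicate 1 titled no CSS. The means were 8.32 ± 0.38 in the samples titled 23 Pa CSS and 7.28 ± 0.58 in those titled no CSS (SD, n = 4 each), and the difference of 1.04 (SE 0.29, 95% interval 0.40 to 1.67) did not pass limma's test (adjusted p = 0.0955). In both SNORD116 rows replicate 4 was the brightest and replicate 3 the dimmest of the samples titled 23 Pa CSS. Replicate 1 was the brightest and replicate 4 the dimmest of those titled no CSS. Replicate 4 titled no CSS also had the dimmest antigenomic and hybridisation control signals of the 8 arrays, 3.85 and 9.97 on average.

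The SNORD116-2 call depended on which array was left out. It was kept when replicate 2 or 3 titled 23 Pa CSS or replicate 1 titled no CSS was left out. It was lost without any 1 of the other 5 arrays, with adjusted p values of 0.0574 and 0.0629 without replicate 1 or 4 titled 23 Pa CSS and of 0.0691, 0.0511 and 0.0612 without replicate 2, 3 or 4 titled no CSS (limma). The difference stayed between 1.13 and 1.48 in all 8 of these fits. SNORD116-1 passed the test in 1 of them, without replicate 3 titled 23 Pa CSS (difference 1.22, limma adjusted p = 0.0469). With all 8 arrays and the replicate number as a block in the fit, the SNORD116-2 call was also lost (limma adjusted p = 0.0508).

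**Figure D3:**
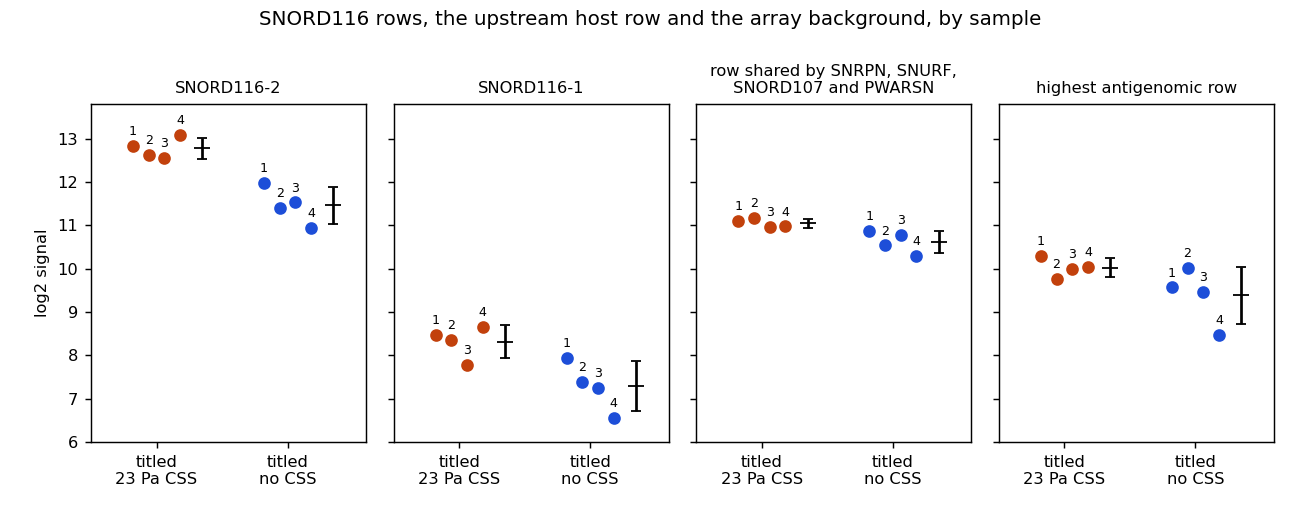
Log2 signal (vertical axis) of SNORD116-2, SNORD116-1, the row shared by SNRPN, SNURF, SNORD107 and PWARSN, and the brightest antigenomic row, in samples titled 23 Pa CSS (orange) and titled no CSS (blue). Points are samples labelled by replicate number, and bars are the mean and SD of 4. SNORD116-2 lies between 12.55 and 13.08 in samples titled 23 Pa CSS and between 10.95 and 11.99 in those titled no CSS.

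The transcript upstream of SNORD116 was not called. The row shared by SNURF and SNRPN, which encode a small nuclear protein and a protein of the splicing machinery, also carries SNORD107 and PWARSN. It had a log2 signal of 11.10, 11.17, 10.95 and 10.98 in the samples titled 23 Pa CSS, against 10.86, 10.54, 10.79 and 10.29 in those titled no CSS. It lay above background in all 8 samples and its groups did not overlap, but the difference of 0.43 (SE 0.18) had a limma adjusted p of 0.251. Whether it differed less than SNORD116 was not tested.

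None of the other rows read for the Prader-Willi region was called. The row shared by SNORD109A and SNORD109B, snoRNA copies of the same region, had 6.78, 6.23, 6.46 and 5.79 in the samples titled 23 Pa CSS, against 5.39, 5.78, 5.67 and 5.24 in those titled no CSS. These groups did not overlap, and the difference of 0.80 had a limma adjusted p of 0.0998. A row of SNORD109B alone averaged 4.17 in the samples titled 23 Pa CSS and 4.10 in those titled no CSS. Its groups overlapped (difference 0.08, limma adjusted p = 0.885). The row shared by SNORD108, SNORD64 and PWAR5 averaged 6.45 ± 0.49 in the samples titled 23 Pa CSS and 6.81 ± 0.29 in those titled no CSS (SD, n = 4 each), with a limma adjusted p of 0.548. Of 22 listed imprinted genes of this region, 10 had a row of their own. None of these was called and none had an unadjusted p under 0.05, and their median difference was 0.11. SNHG14, the long transcript that holds SNORD115 and SNORD116, was not among the 10. UBE3A, the ubiquitin ligase gene that the antisense part of SNHG14 overlaps in neurons, was the only 1 of the 10 above background in all 8 samples. It had 9.48, 10.49, 10.46 and 10.19 in the samples titled 23 Pa CSS, against 10.51, 10.45, 10.54 and 10.31 in those titled no CSS, with overlapping groups (difference -0.30, limma adjusted p = 0.588).

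SNORD114, with 30 rows of its own, lay between 2.62 and 6.52 in the samples titled 23 Pa CSS and between 2.73 and 6.05 in those titled no CSS. None of its 30 rows was called in either direction. As deposited, 20 differences were positive and 10 negative, and their median of 0.16 turned to -0.15 with arrays centred on the hybridisation controls. Over the whole array 72728 of 135750 differences were positive as deposited. The median over the 30 rows was 3.55, 4.02, 3.48 and 3.66 in the samples titled 23 Pa CSS, against 3.47, 3.41, 3.55 and 3.43 in those titled no CSS. Replicate 2 titled 23 Pa CSS stood highest, and the other 7 samples lay between 3.41 and 3.66.

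SNORD114-29 had the smallest p of its family. It had 3.51, 4.20, 3.47 and 4.0 in the samples titled 23 Pa CSS, against 2.99, 3.27, 3.12 and 3.17 in those titled no CSS, and the groups did not overlap. The difference was 0.66 (SE 0.20, limma adjusted p = 0.122), at a level near the antigenomic median. SNORD114-14 had 5.21, 5.20, 5.17 and 5.01 in the samples titled 23 Pa CSS, against 4.75, 4.88, 4.67 and 4.77 in those titled no CSS. Its groups did not overlap either, with an SD of 0.095 in the samples titled 23 Pa CSS and 0.088 in those titled no CSS (n = 4 each), and the difference was 0.38 (limma adjusted p = 0.239). The interval with the highest upper end among the dim families was that of SNORD114-31, which averaged 6.15 ± 0.42 in the samples titled 23 Pa CSS and 5.52 ± 0.50 in those titled no CSS (SD, n = 4 each). Its difference was 0.63, with a 95% interval of 0.02 to 1.24 and a limma adjusted p of 0.292.

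SNORD113, the family that lies beside SNORD114, ranged from 2.86 to 6.38 in the samples titled 23 Pa CSS and from 2.83 to 6.33 in those titled no CSS. None of its 9 rows was called and no row had groups without overlap. As deposited, 5 differences were positive and 4 negative, and their median of 0.13 turned to -0.01 with arrays centred on the antigenomic mean and to -0.18 with arrays centred on the hybridisation controls. SNORD113-7 had 5.61, 5.12, 5.53 and 5.45 in the samples titled 23 Pa CSS, against 5.18, 4.85, 5.13 and 4.89 in those titled no CSS (difference 0.42, limma adjusted p = 0.267). SNORD113-5 had 4.98, 4.29, 4.44 and 4.73 in the samples titled 23 Pa CSS, against 4.18, 3.89, 4.66 and 3.97 in those titled no CSS (difference 0.44, limma adjusted p = 0.372). Both stood higher on average in the samples titled 23 Pa CSS, with groups that overlapped. SNORD113-3 had the lowest difference of all members, -0.38, with 3.50, 3.47, 3.91 and 4.38 in the samples titled 23 Pa CSS, against 4.57, 4.23, 4.04 and 3.95 in those titled no CSS (limma adjusted p = 0.481). SNORD113-8, 1 of the rows above the antigenomic row with 8 G and C bases, averaged 5.81 ± 0.45 in the samples titled 23 Pa CSS and 5.88 ± 0.33 in those titled no CSS (SD, n = 4 each), a difference of -0.07 (limma adjusted p = 0.935). SNORD113-1 varied most within a group, from 3.09 to 4.98 in the samples titled 23 Pa CSS against 3.76 to 4.65 in those titled no CSS.

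None of the neighbours read on chromosome 14 was called. MEG3, the maternally expressed non-coding RNA upstream of both families, had 1 row that it shares with MIR770, which averaged 7.30 ± 0.19 in the samples titled 23 Pa CSS and 7.28 ± 0.28 in those titled no CSS (SD, n = 4 each). The difference was 0.02 (limma adjusted p = 0.978), and the row did not exceed the antigenomic 95th percentile in either group. The row shared by MEG8, the non-coding RNA next along, and SNORD112 averaged 5.64 ± 0.27 in the samples titled 23 Pa CSS and 5.43 ± 0.34 in those titled no CSS (SD, n = 4 each), with a limma adjusted p of 0.697. A row of MEG8 alone averaged 3.74 in the samples titled 23 Pa CSS and 3.52 in those titled no CSS. Its difference was 0.21 (limma adjusted p = 0.764), and in neither group did all 4 samples exceed the antigenomic median. Of 51 listed genes of the region outside the snoRNA families, 48 had a row of their own, none of them was called and none lay above background in all 8 samples. Their median difference was 0.18, and 3 of the 48 had an unadjusted p under 0.05, where 16.0% of all transcript clusters had one. DLK1, the paternally expressed Notch-related gene at the edge of the region, differed by 0.22 (limma adjusted p = 0.769).

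SNORD115, the family with the smallest share of rows above the antigenomic median, ranged from 2.71 to 5.84 in the samples titled 23 Pa CSS and from 2.58 to 5.39 in those titled no CSS. None of its 22 rows was called and none had groups without overlap. As deposited, 17 differences were positive and 5 negative, where 72728 of 135750 were positive over all transcript clusters. The median of the 22 rows, 0.07, turned to -0.08 with arrays centred on the antigenomic mean and to -0.24 with arrays centred on the hybridisation controls. SNORD115-38 had the smallest p, with 3.72, 4.22, 3.91 and 3.52 in the samples titled 23 Pa CSS, against 3.77, 2.98, 3.00 and 3.14 in those titled no CSS (difference 0.62, limma adjusted p = 0.196). Replicate 1 titled no CSS lay among the samples titled 23 Pa CSS. SNORD115-6 was lower on average, with 2.84, 3.21, 3.19 and 3.19 in the samples titled 23 Pa CSS, against 3.30, 3.20, 3.74 and 3.70 in those titled no CSS (difference -0.38, limma adjusted p = 0.355). Rows that list several symbols, SNORD114 or SNORD115 copies among them, numbered 11 and held 5 distinct sets of values. The SNORD115-9 row held the same 8 values as 2 of these rows and so is not specific to that copy. These 11 rows lay between 2.76 and 4.51, their differences ran from -0.43 to 0.25, and none was called.

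Across all 63 members, 1 was called higher and none lower, against 2.01% of all transcript clusters called. An unadjusted p under 0.05 was found in 7, all with a positive difference: 1 of SNORD113, 3 of SNORD114, 1 of SNORD115 and both of SNORD116. Of all transcript clusters 16.0% had such a p in either direction, and 9838 of 135750 had one with a positive difference. Groups without overlap were found in 3 members, SNORD116-2, SNORD114-14 and SNORD114-29. All 3 were higher in the samples titled 23 Pa CSS, where 4.78% of all transcript clusters were higher without overlap. The median difference was 0.13 over the members, 0.12 over the 130 rows of other SNORD genes and 0.03 over all transcript clusters. Of the 130 other SNORD rows 11 were called higher and 2 lower, and 1 had a larger positive difference than SNORD116-2. For the 61 rows of the dim families the 95% intervals ran from -0.95 at the lowest (SNORD113-1) to 1.24 at the highest (SNORD114-31). Each interval is for 1 row alone and for the signals as deposited, so these ends are no joint bound. They concern signal, not RNA.

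**Figure D4:**
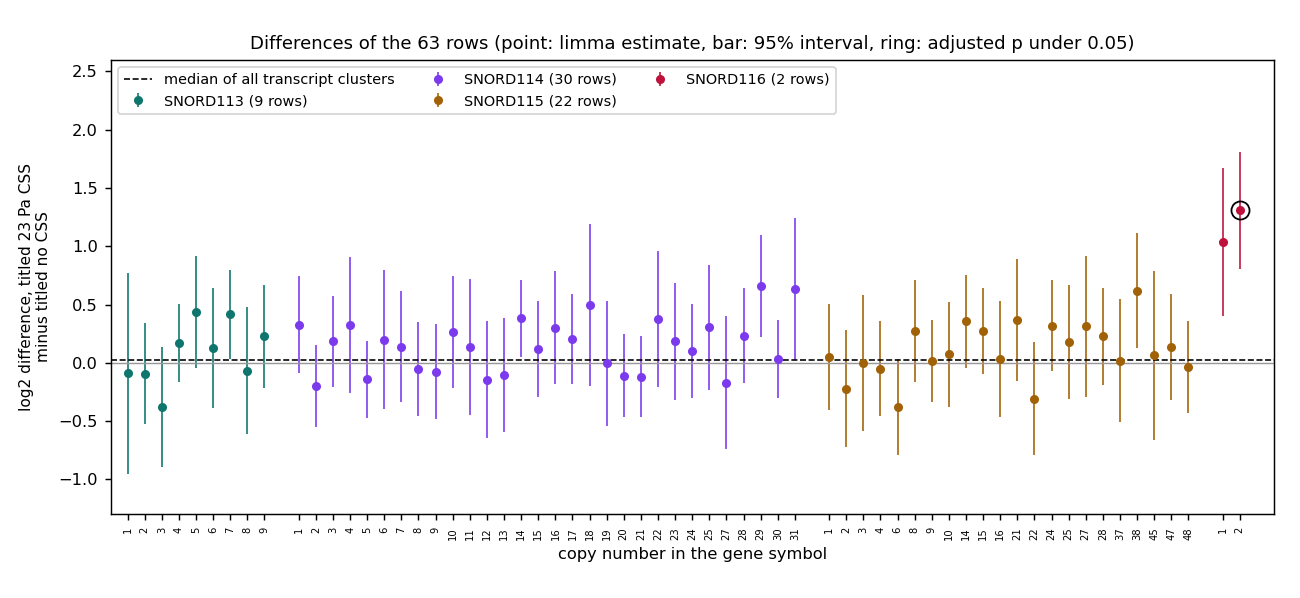
Log2 difference (vertical axis, samples titled 23 Pa CSS minus samples titled no CSS) of each of the 63 rows (horizontal axis, copy number in the symbol), with limma's estimate as a point and its 95% interval as a bar. The ring marks SNORD116-2, the 1 member called, at 1.31. The dashed line is the median of all transcript clusters, 0.03, and the SNORD113, SNORD114 and SNORD115 points lie between -0.38 and 0.66.

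The genes of proteins that bind box C/D snoRNAs were not called. Of 14 listed genes of snoRNA particles and their assembly 12 had a row of their own, 7 of which lay above background in all 8 samples, and 4 had an unadjusted p under 0.05 with a higher and 1 with a lower mean in the samples titled 23 Pa CSS, where 16.0% of all transcript clusters had such a p in either direction. FBL, which encodes the methyltransferase fibrillarin, was read on the highest of its 13 rows, none of which was called. The identifier of that highest row marks it as unmapped. That row averaged 13.45 ± 0.27 in the samples titled 23 Pa CSS and 12.88 ± 0.17 in those titled no CSS (SD, n = 4 each), a difference of 0.57 (limma adjusted p = 0.145). Over the 13 rows of FBL the differences ran from -0.31 to 0.75. NOP58, a core protein of the particle, had 12.25, 13.57, 13.69 and 12.79 in the samples titled 23 Pa CSS, against 14.37, 14.06, 14.16 and 14.12 in those titled no CSS. Its groups did not overlap, and the difference of -1.10 had a limma adjusted p of 0.0803. SNU13, which binds the snoRNA first, differed by 0.56 (limma adjusted p = 0.126). NOP56, whose row is shared with snoRNAs of its own introns, differed by 0.06 (limma adjusted p = 0.904).

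Markers of the line and of other cell types were read on the same arrays. Of 7 LN229 markers with a row of their own 5 lay above background in all 8 samples (NES, VIM, CD44, SOX2 and S100B), and GFAP did not, with 4.58 in the samples titled 23 Pa CSS and 4.30 in those titled no CSS on average. EGFR lay above background in all 4 samples titled 23 Pa CSS but not in all 4 titled no CSS. Its difference of 0.84 was the largest of the 7 (limma adjusted p = 0.118), with overlapping groups. Of 6 neuronal markers none lay above background in all 8 samples, and their summed log2 signal was 33.1 to 34.8 in the samples titled 23 Pa CSS and 35.4 to 36.5 in those titled no CSS. The differences of the 6 were positive in 3 and negative in 3, and the most negative was that of SYT1, a synaptic vesicle protein gene. It had 8.32, 9.79, 9.88 and 9.02 in the samples titled 23 Pa CSS, against 10.20, 10.50, 10.48 and 10.18 in those titled no CSS, where it lay above background in all 4 (difference -1.09, limma adjusted p = 0.0995). Of 4 leukocyte markers CD68, a lysosomal protein gene, was called higher (difference 1.49, limma adjusted p = 0.0132) and the other 3, PTPRC among them, did not exceed background in either group. The summed log2 signal of the 4, CD68 included, was 24.5 to 27.2 in the samples titled 23 Pa CSS and 23.1 to 24.3 in those titled no CSS. CD68 had the largest difference of the 4. The groups overlapped in AIF1 and CX3CR1 and did not in PTPRC. The summed log2 signal of the 7 LN229 markers was at least 82.5 in the samples titled 23 Pa CSS and at most 81.7 in those titled no CSS. None of 2 oligodendrocyte, 3 endothelial and 3 pluripotency markers was called or lay above background in either group. The sums of the LN229, neuronal and leukocyte markers did not overlap between the groups, as the values of SNORD116-2 did not, and their part in its difference was not tested.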

How the data were processed

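Total RNA of 8 samples of LN229 cells was labelled with a whole-transcript kit and hybridised to expression arrays, 1 array per sample. Per the labels, the authors made the deposited log2 signals with Transcriptome Analysis Console, for which the submitters' processing notes give no version. How signals were summarised and normalized, and on which genome build, is not given in the sources used here. The series text names an array whose identifiers differ from those of the transcript clusters, so the files' positions are not printed. Arrays give no counts, and their number limits the precision. Of the transcript clusters 36176 carried exactly 1 symbol in the platform annotation, 1119 several and 98455 none.

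The 2995 control rows were set aside. The 135750 transcript clusters entered a two-sided limma test (version 3.58.1, R 4.3.3, functions lmFit and eBayes) that left 6 residual and added 5.28 prior degrees of freedom. Dim rows were not filtered, and p-values were adjusted over all of them with the Benjamini-Hochberg method. Called means an adjusted p under 0.05. The script was first tested on simulated data. Single values were compared by exact permutation in scipy 1.17.1. Scan dates and other batches are not given in the sources used here.

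The members and gene lists were chosen with earlier results of these data known. The 9 members named by rule were those called, those above background in a group, the 2 with the smallest p of each family, and the highest and lowest difference. Other members were named after their values were seen. Listed genes with several rows stand by the row with the highest mean. Sequences and copy numbers came from RefSeq tables (GRCh38.p14), in which the snoRNA sequences themselves were not used here.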

Additional observations from a re-analysis of the deposited data

Results flagged for a closer look

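Of 40 groups of 4 samples examined among the named values, 1 held a sample far from the others. SNORD115-6 had a log2 signal of 2.84 in replicate 1 titled 23 Pa CSS, against 3.19 to 3.21 in the other 3 samples of that title. The gap was 0.967 of the group's range, above Dixon's 95% critical value for 4 samples. Chance gives such a value in about 1 of 20 groups.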

How the results depend on the processing

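SNORD116-2 kept a positive difference under all 15 alternatives (0.996 to 1.48) and its call under 9 of them, with adjusted p values of 0.00657 to 0.0691 over the 15 (limma). The labels do not say whether the replicate numbers pair the samples. Deviations of same-numbered samples correlated at -0.0791 to -0.0178 over all transcript clusters. Most of these rows are dim, so the values cannot exclude a shared culture or day. With the replicate block the SNORD116-2 difference of 1.31 had an adjusted p of 0.0508, so that 0 of 63 members were called in place of 1, and 1329 of all transcript clusters were called in place of 2727. Without 1 array at a time, 0 to 2 members and 411 to 5360 transcript clusters were called. The highest count came without replicate 3 titled 23 Pa CSS, where SNORD116-1 was called too (1.22). Centred on the antigenomic mean 4248 transcript clusters were called, 551 higher and 3697 lower. Centred on the hybridisation controls it was 8581, 373 higher and 8208 lower, against 789 higher and 1938 lower as deposited. Restricted to the 14140 rows above background in a group, 4173 were called, and no member other than SNORD116-2 could be tested. The median differences of the dim families changed sign with centring: to -0.0146 (SNORD113) and -0.0765 (SNORD115) on the antigenomic mean, and on the hybridisation controls to -0.181 (SNORD113), -0.149 (SNORD114) and -0.243 (SNORD115). With the antigenomic median as threshold, 7 SNORD113, 13 SNORD114, 7 SNORD115 and 2 SNORD116 rows lay above background in the samples titled 23 Pa CSS, and 8, 12, 7 and 2 in those titled no CSS. Against the negative control rows, 2 SNORD116 rows did in the samples titled 23 Pa CSS. The causes were not tested. None of the 9 members named by rule changed sign under these alternatives. The other counts stayed within 1.5 times, and the other family medians moved by less than the spread between replicates. Signal over background limits the 61 rows of the dim families, for which a missing call does not show equal RNA.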
